A study of Mus musculus with 24 samples.

Results

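The 40 genes described here carry fatty acids into cells and burn them. They comprise fatty acid carriers, acyl-CoA synthetases, the carnitine shuttle, the enzymes of mitochondrial and peroxisomal beta-oxidation, and the regulators of these genes. They were taken by symbol from a list and not by a threshold on measured values, but the list was chosen with earlier results of these data known. All 40 were found among the 21793 genes of a table of hippocampal messenger RNA. The hippocampus, a brain region needed for memory, was taken from 24 female mice, 1 library each. Of these, 12 were 3xTg-AD mice (3xTg), a model of Alzheimer's disease that carries human APP and MAPT transgenes under the neuronal Thy1 promoter, and 12 were B6129SF2/J mice (WT), the comparison strain. Feeding began at 3 months of age and lasted 6 months. The control diet (C) was 70% carbohydrate, with long-chain triglycerides at 20% and protein at 10%, and supplied 4.1 kcal/g. The MCT diet (M) kept the same carbohydrate, protein and energy, but its fat was 10% long-chain and 10% medium-chain triglyceride, the latter of caprylic and capric acid at 3:2. The ketogenic diet (K) had no carbohydrate, took 90% from long-chain triglycerides and 10% from protein, and supplied 6.7 kcal/g. The groups were WT_C, WT_K and WT_M with 4 mice each, 3xTg_C with 3, 3xTg_K with 5 and 3xTg_M with 4, and libraries are named by group and replicate (3xTg_K_2). The labels give no litters or cages.

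Fatty acids are activated to acyl-CoA before they are used. Long-chain acyl-CoA needs the carnitine shuttle to enter mitochondria, whereas medium-chain fatty acids can cross the membrane and be activated inside, so the carnitine step is the classical point at which their handling differs. Inside, acyl-CoA dehydrogenases specific for chain length open each round of beta-oxidation, and the long-chain rounds are completed by the trifunctional protein of Hadha and Hadhb. In liver and muscle, fatty acids activate the receptor PPAR-alpha, which raises transcription of many of these genes and of Pdk4, the kinase that shuts off pyruvate dehydrogenase and so spares glucose. The adult brain runs mainly on glucose and ketone bodies, and what fatty acid oxidation it has is attributed mostly to astrocytes.

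The comparison of medium-chain and long-chain steps rests on the dehydrogenase genes Acadm (medium-chain), Acadl (long-chain) and Acadvl (very-long-chain), and on Pdk4. The stretches upstream of their starts are shown because PPAR-alpha binds a repeat of the nuclear receptor core AGGTCA. The sequences are from RefSeq on GRCm38.p6, 5' to 3' on the strand of the gene. Each begins 250 bases before the start site, and that of Pdk4 ends at base 219, before the first annotated exon. Capitals mark this core, the CCAAT box and the GC box (GGGCGG), each on either strand.
Acadm (chr3:153944644-153944893, minus strand): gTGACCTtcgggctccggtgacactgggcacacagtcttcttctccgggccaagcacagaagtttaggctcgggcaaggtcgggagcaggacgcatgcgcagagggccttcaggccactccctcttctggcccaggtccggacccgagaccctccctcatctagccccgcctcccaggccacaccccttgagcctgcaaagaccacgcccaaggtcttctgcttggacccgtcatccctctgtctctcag
Acadl (chr1:66863310-66863559, minus strand): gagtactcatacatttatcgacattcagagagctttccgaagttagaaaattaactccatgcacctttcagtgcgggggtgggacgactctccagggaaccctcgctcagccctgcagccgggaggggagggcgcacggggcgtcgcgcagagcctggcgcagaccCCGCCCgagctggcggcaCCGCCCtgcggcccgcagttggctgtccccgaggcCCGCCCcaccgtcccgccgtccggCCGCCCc
Acadvl (chr11:70015429-70015678, minus strand): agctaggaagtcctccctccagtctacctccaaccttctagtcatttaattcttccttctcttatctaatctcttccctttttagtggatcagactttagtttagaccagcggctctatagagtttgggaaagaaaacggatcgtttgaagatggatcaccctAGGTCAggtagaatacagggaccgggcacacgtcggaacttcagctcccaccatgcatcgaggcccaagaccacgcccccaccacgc
Pdk4 (chr6:5496310-5496528, minus strand): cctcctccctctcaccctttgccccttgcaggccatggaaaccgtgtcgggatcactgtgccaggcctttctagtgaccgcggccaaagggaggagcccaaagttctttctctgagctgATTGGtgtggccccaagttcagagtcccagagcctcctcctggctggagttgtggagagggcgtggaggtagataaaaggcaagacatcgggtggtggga
Acadm and Acadvl each hold 1 AGGTCA core, Acadl holds 4 GC boxes, and Pdk4 holds 1 CCAAT box. The table of promoters matched 35 members with 40 start sites. The core AGGTCA on either strand lay in 7 of these 40 windows of 250 bases (17.5%), against 14% of the 32851 windows of all genes. Its tandem repeat with 1 base of any kind between the copies, which includes the single core, was found in 0 of the 40 and in 0.0335% of all. The CCAAT box lay in 20 of the 40 (all windows 33.8%) and the GC box in 28 (70.0%, against 32.7%). These are matches of letters in short windows and no statement about binding.

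Values are normalised read counts, which the authors had scaled per library. Reads assigned to genes numbered 2.65 M in 3xTg_K_2 and 10.1 to 25.8 M in the other libraries. All 8 markers of hippocampal neurons were at 10 or more. In 3 libraries Thy1, whose promoter drives the transgenes, went against the label. Its level was 9189 for the label 3xTg_C_3, 8112 for 3xTg_K_1 and 23048 for WT_M_2, whereas the other WT libraries lay between 6952 and 8137 and the other 3xTg libraries between 20385 and 29277. App went against the label in the same 3 libraries, at 23524, 23019 and 30297 in that order. The other WT libraries held 21293 to 25302 of it and the other 3xTg libraries 29473 to 37175. Results below use all 24 libraries as labelled. The value over the other 21 is added for called genes and where it turns or clearly moves a gene difference described below. Summed markers of choroid plexus were at 13146 in WT_C_1 and 4896 in WT_K_1, and between 439 and 810 in the others.

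The hippocampus expressed almost the whole route. A value of 10 or more in at least 3 libraries was reached by 39 of the 40 genes. The exception was Cpt1b, the carnitine palmitoyltransferase of muscle, with 16 reads over the 24 libraries and at most 2.01 normalised counts. Of its 3372 exon bases, 2744 are also exons of Gm44502 on the same strand. Of its 50-base stretches, 78.6% also occur in Gm44502. How reads from such bases were counted is not given in the sources used here, so its level may be underestimated. Levels of different genes were compared per kb of exon, taken as the union of all annotated exons of a gene. This union was 8730 bases for Hadha and 2005 for Acadl. Where it is longer than the transcript present, the level per kb comes out too low, so the order depends on the annotation. Acyl-CoA synthetases led, with Acsl3 at 1003 ± 79.4 (SD, n = 24) normalised counts per kb, Acsl4 at 466 ± 16.7 and Acsl6 at 366 ± 21.1. Acadl followed at 317 ± 25.5, and the binding protein gene Fabp3 at 279 ± 34.2, and these neighbours overlap within their spread. Acadvl stood at 181 ± 10.5, Acadm at 139 ± 9.92 and the trifunctional subunit Hadha at 134 ± 7.79. Acadm and Hadha also lay within each other's spread. Its partner Hadhb stood at 43.9 ± 3.72. Among the genes listed with the carnitine shuttle, Cpt1c, a neuronal form, had the highest level, 207 ± 8.75. Its part in the entry of long chains into mitochondria was not measured. Cpt1a, the form of liver and astrocytes, stood at 59.5 ± 3.79, the carnitine-acylcarnitine carrier Slc25a20 at 40.8 ± 3.23 and Cpt2 at 30.1 ± 5.51. The fatty acid receptor Cd36 (14.9 ± 5.00) and Ppara (12.1 ± 3.07) were the lowest of the genes that were tested. In a tissue extract, fewer cells of a type and less RNA per cell cannot be told apart.

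**Figure D1:**
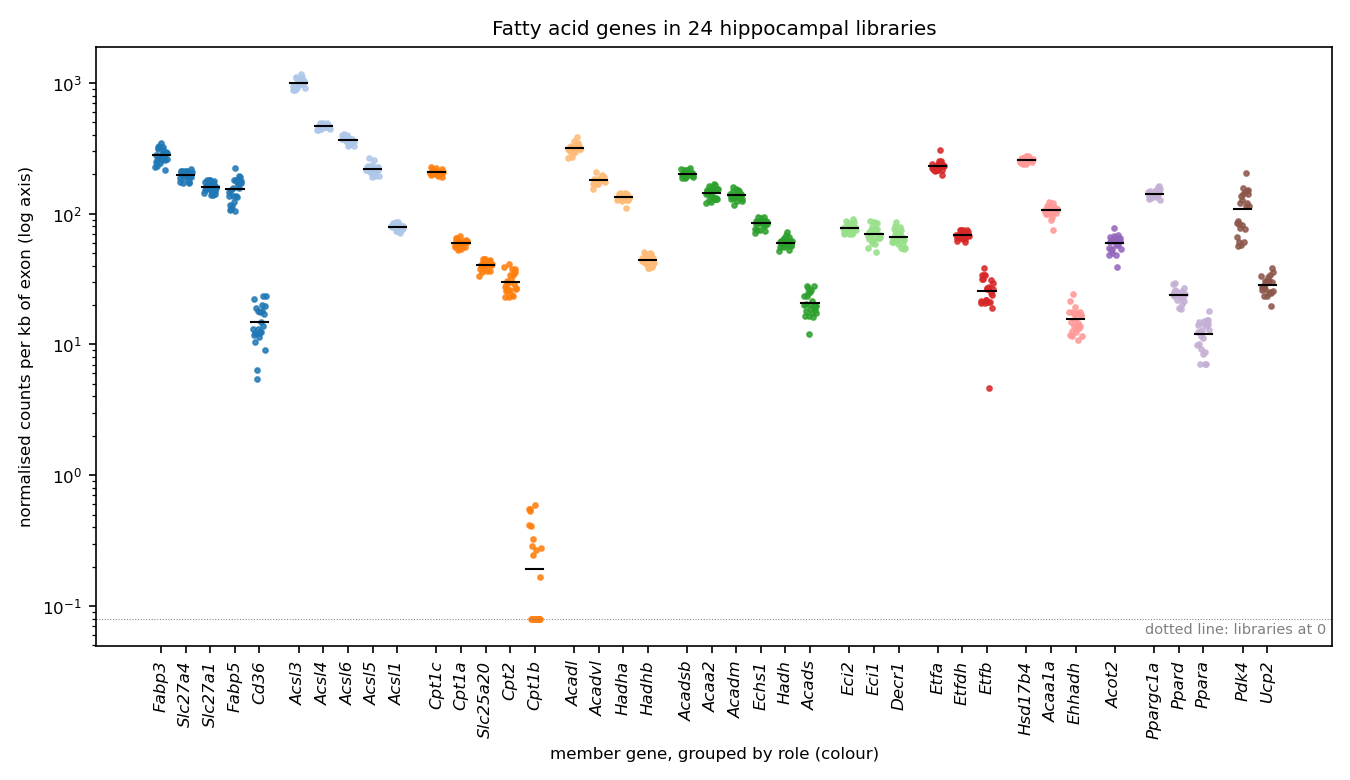
Normalised counts per kb of exon (log axis) of the 40 genes in each of 24 libraries, coloured and ordered by role, with the mean over libraries as a bar. Acsl3 leads at 1003 per kb, and Cpt1b is the gene at the bottom, with libraries at 0 drawn on the dotted line.

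Most members varied little between mice of a group. The median SD within groups was 0.114 on the log2 scale over the 39 genes, against 0.137 over all 14162 genes tested. The members were also more abundant, with a median of 455 normalised counts against 353, and the SDs were not adjusted for level. Pdk4 was an exception with an SD of 0.48, at the 91.8th percentile of all genes tested. Cd36 (0.50) and Etfb (0.56) were the other exceptions above it. Etfb, a subunit of the flavoprotein that takes electrons from the dehydrogenases, had 1 read in the shallow library 3xTg_K_2, and 44.8% of its 50-base stretches also occur in other gene models, most in Gm45233.

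Neither diet moved any member past the test. The tests were limma on log2(normalised count + 1), with Benjamini-Hochberg adjustment over all 14162 genes and a threshold of 0.05. Ketogenic against control, averaged over genotypes, called 0 of 39 members, as it called 0% of all genes, and edgeR and DESeq2 also called 0 members (0% of all genes each). At an unadjusted p under 0.05 there were 2 of 39 members (all genes 4.99%). Of the members, 25 of 39 had a positive difference, with a median of 0.01 on the log2 scale against -0.00 for all genes. MCT against control called 0 of 39 (0% of all genes), also with edgeR (0.00706% of all genes) and DESeq2 (0.0141%). It had 0 members at an unadjusted p under 0.05 (all genes 4.24%), 23 positive differences and a median of 0.02. Ketogenic against MCT called 0 of 39 (0.00706% of all genes), also with edgeR (0%) and DESeq2 (0.0141%). It had 1 member at an unadjusted p under 0.05 (all genes 4.75%), 19 positive differences and a median of -0.00. The diet comparisons share their control libraries.

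Intervals were narrow for most members, and the shares below were not adjusted for expression level. The 95% interval of the ketogenic-minus-control difference lay within 1.2-fold in either direction for 28 of 39 genes (71.8%, against 64.7% of all genes), and that of MCT minus control for 27 (69.2%, against 64.2%). Intervals that reached past 0.5 on the log2 scale belonged to Cd36, Etfb, Pdk4 and Ppara for the ketogenic diet and to Acads, Cd36, Etfb and Pdk4 for MCT. For these genes a difference of that size was not excluded by these libraries.

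**Figure D2:**
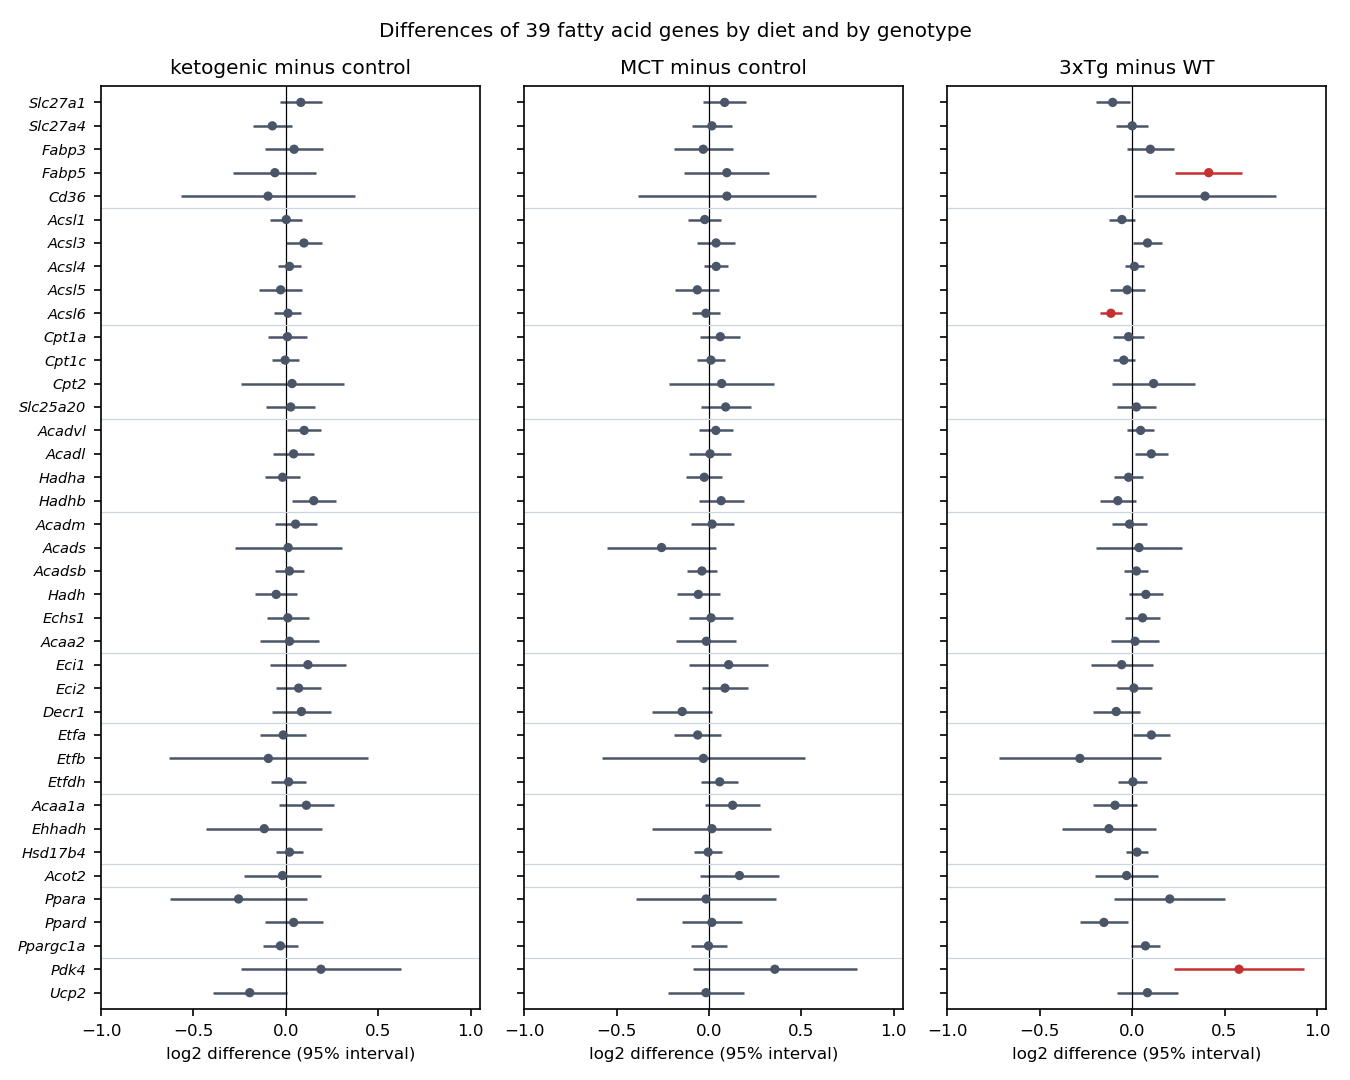
Log2 differences of the 39 tested genes with 95% intervals for ketogenic minus control, MCT minus control and 3xTg minus WT, grouped by role, with called genes in red. Red is seen for Fabp5, Acsl6 and Pdk4 alone, in the genotype panel.

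Within each genotype no member was called either. Ketogenic against control called 0 of 39 in WT (0% of all genes), with 3 at an unadjusted p under 0.05 (all genes 4.62%), and 0 of 39 in 3xTg (0%), with 3 (all genes 6.69%). MCT against control called 0 of 39 in WT (0.00706%), with 0 (all genes 4.79%), and 0 of 39 in 3xTg (0%), with 1 (all genes 2.67%). The difference of the diet effect between genotypes called 0 of 39 for the ketogenic diet (0%), with 2 at an unadjusted p under 0.05 (all genes 6.68%), and 0 of 39 for MCT (0%), with 0 (all genes 2.78%). In each of these 6 comparisons edgeR and DESeq2 called 0 members, where they called 0% of all genes except for MCT against control in WT (DESeq2 0.0212%).

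The long-chain steps were described first, since the ketogenic diet is long-chain fat. Acadvl, which opens the longest chains, was at 415, 455, 479 and 491 normalised counts in WT_C, at 464, 486, 559 and 489 in WT_K and at 456, 483, 456 and 495 in WT_M. In 3xTg it was at 476, 468 and 493 on control, at 497, 508, 527, 508 and 492 on the ketogenic diet and at 496, 485, 512 and 469.8 on MCT. In 3xTg, 4 of the 5 ketogenic libraries lay above the 3 control libraries and 1 just below the highest of them, and the WT groups overlapped. The ketogenic-minus-control difference was 0.10 ± 0.04 (SE; limma, adjusted p = 0.946), and 0.04 ± 0.05 for MCT (adjusted p = 1.0). Exons of Acadvl overlap those of Dvl2 on the opposite strand over 1151 bases, and whether the counting used strand is not given in the sources used here.

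Hadhb encodes the thiolase subunit of the trifunctional protein and had the smallest p of the members under the ketogenic diet. It was at 303, 287, 286 and 287 in WT_C, at 288, 335, 322 and 274 in WT_K and at 307, 270.4, 271 and 309 in WT_M. The 3xTg libraries held 254, 253 and 260.4 on control, 331, 292, 327, 308 and 256 on the ketogenic diet and 268, 303, 282 and 275 on MCT. The 3 control 3xTg libraries were the narrowest and lowest group, and 4 of the 5 ketogenic 3xTg libraries lay above them while the lowest of them lay within their range. The difference averaged over genotypes was 0.15 ± 0.06 (95% interval 0.03 to 0.27; unadjusted p = 0.0155 and adjusted p = 0.946 with limma). Within 3xTg it was 0.24 ± 0.08 (adjusted p = 0.724). Of the 50-base stretches of Hadhb, 19.7% also occur in other gene models, most of them in Gm13910.

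Hadha, the other subunit, was at 1115, 1158, 1122 and 1228 in WT_C, at 1181, 1244, 1260.0 and 1123 in WT_K and at 1231, 1176, 1093 and 1218 in WT_M. Among 3xTg mice the values were 1234, 1134 and 1266 on control, 1197, 967, 1197, 1230.5 and 1106 on the ketogenic diet and 1106, 1157, 1154 and 1162 on MCT. The value of 967 belongs to the shallow library, and all groups overlapped. Its ketogenic-minus-control difference was -0.02 (95% interval -0.11 to 0.08). Acadl, which acts on long and branched chains, was at 624, 532, 609 and 651 in WT_C, at 651, 581, 658 and 542 in WT_K and at 625, 644, 581 and 627 in WT_M. For 3xTg the values were 719.9, 634 and 595 on control, 654, 767, 627, 699.9 and 671 on the ketogenic diet and 637, 656, 623 and 626 on MCT. The groups overlapped, with differences of 0.04 (-0.07 to 0.15) for the ketogenic diet and 0.01 (-0.11 to 0.12) for MCT, the latter -0.03 over the 21 libraries. Over the 4 long-chain genes, 3 of 4 had a positive difference on each diet, with medians of 0.07 and 0.02.

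Acadm, the dehydrogenase for the chain lengths that the MCT diet supplies, was at 552, 531, 504 and 528 in WT_C, at 524, 581, 625 and 459 in WT_K and at 519, 541, 562 and 603 in WT_M. In 3xTg it was at 562, 489.7 and 553 on control, at 598, 578, 513, 555 and 551 on the ketogenic diet and at 532, 550.2, 508 and 493 on MCT. All 6 groups overlapped. The MCT-minus-control difference was 0.02 (95% interval -0.10 to 0.13; limma, adjusted p = 1.0), and that of the ketogenic diet 0.05 (-0.06 to 0.17; adjusted p = 0.973). The short-chain dehydrogenase gene Acads was far less abundant, at 27.4 to 63.8 normalised counts over all libraries. It was at 45.5, 53.2, 37.4 and 46.6 in WT_C, at 41.2, 63.8, 53.4 and 60.8 in WT_K and at 55.9, 37.5, 27.4 and 42.2 in WT_M. The 3xTg libraries held 57.3, 45.4 and 59.1 on control, 39.4, 48.6, 37.0, 63.5 and 44.2 on the ketogenic diet and 41.4, 45.7, 39.7 and 44.7 on MCT. In 3xTg, 3 of the 4 MCT libraries lay below the lowest control library and the remaining one just above it, and the WT groups overlapped. Its difference was -0.26 ± 0.14 for MCT (adjusted p = 1.0) and 0.01 for the ketogenic diet. The branched-chain dehydrogenase gene Acadsb, the hydratase gene Echs1, the hydroxyacyl dehydrogenase gene Hadh and the thiolase gene Acaa2 completed the group. Of the 6 medium- and short-chain genes, 5 had a positive difference on the ketogenic diet (median 0.02) and 2 on MCT (median -0.03).

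**Figure D3:**
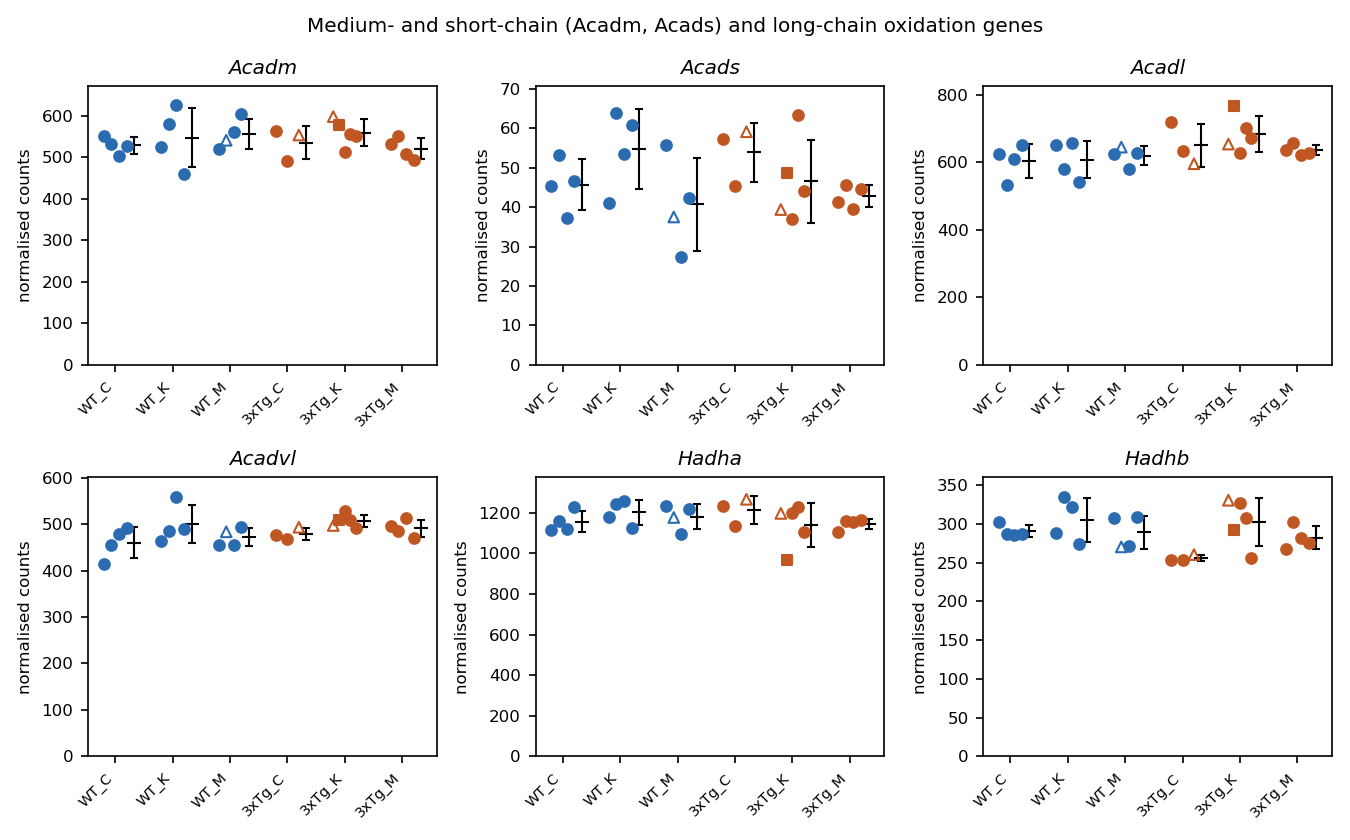
Normalised counts of Acadm and Acads (medium- and short-chain) and of Acadl, Acadvl, Hadha and Hadhb (long-chain) in each library by group (WT blue, 3xTg orange), with mean and SD in black. Open triangles are the 3 libraries whose Thy1 goes against the label and the square is the shallow library, and the diet groups overlap for each of the 6 genes within WT.

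The balance of medium- to long-chain steps was taken in 2 ways, neither of them tested. The log2 level of Acadm minus the mean of Acadl and Acadvl was 0.01 ± 0.12 in WT_C (SD, n = 4), -0.02 ± 0.13 in WT_K and 0.04 ± 0.09 in WT_M. It was -0.06 ± 0.09 in 3xTg_C (n = 3), -0.07 ± 0.09 in 3xTg_K (n = 5) and -0.10 ± 0.05 in 3xTg_M (n = 4). The means on the diets differed from control by less than the SD of the control group in each genotype. The broader balance set the mean log2 level of Acadm, Acads, Hadh, Echs1 and Acaa2 against the mean of the 4 long-chain genes. It was -1.14 ± 0.03 in WT_C, -1.11 ± 0.06 in WT_K and -1.17 ± 0.05 in WT_M, and these groups overlapped. It was -1.02 ± 0.05 in 3xTg_C, -1.18 ± 0.06 in 3xTg_K and -1.16 ± 0.06 in 3xTg_M. All 3 control libraries of 3xTg (-1.08 to -0.99) lay above every ketogenic and MCT library of 3xTg, of which the highest was at -1.10. The highest control value, -0.99, belongs to the library labelled 3xTg_C_3, whose Thy1 goes against the label. Without it the split rests on 2 control mice, of which 3xTg_C_2 was the lower at -1.08. The ketogenic group likewise includes the library labelled 3xTg_K_1, whose Thy1 goes against the label.

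The carnitine shuttle separates the entry of long chains from that of medium chains. Cpt1a, its first and regulated enzyme, was at 443, 427, 498 and 477 in WT_C, at 501, 416, 402 and 473 in WT_K and at 446, 516, 459 and 429 in WT_M. Among 3xTg mice the values were 410.1, 452 and 433 on control, 439, 470.0, 456, 427 and 461 on the ketogenic diet and 476, 467, 470.3 and 461 on MCT. All 4 MCT libraries of 3xTg lay above the 3 control libraries, and in WT the groups overlapped. The MCT-minus-control difference was 0.12 ± 0.08 within 3xTg (limma, adjusted p = 0.999) and 0.06 (95% interval -0.05 to 0.17) averaged over genotypes, and that of the ketogenic diet was 0.01 (-0.10 to 0.11).

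Slc25a20, the carrier that exchanges acylcarnitine for carnitine, was at 161, 182, 196 and 195 in WT_C, at 173, 191, 208 and 219 in WT_K and at 184, 219, 219 and 212 in WT_M. For 3xTg the values were 211, 199 and 196 on control, 177, 199.9, 208, 211 and 178 on the ketogenic diet and 213, 195, 197 and 199 on MCT. In WT, 3 of the 4 MCT libraries lay above all control libraries, whereas the 3xTg groups overlapped. The MCT difference in WT was 0.18 ± 0.09 (limma, adjusted p = 0.989) and averaged 0.09 (-0.05 to 0.23). Cpt2, which returns the acyl group to CoA inside, was at 93.7, 65.8, 55.1 and 60.9 in WT_C, at 68.6, 63.8, 72.8 and 60.8 in WT_K and at 70.7, 98.2, 54.7 and 62.3 in WT_M. In 3xTg it was at 80.5, 76.3 and 57.2 on control, at 90.9, 81.0, 56.5, 83.5 and 69.2 on the ketogenic diet and at 85.5, 90.8, 65.0 and 63.3 on MCT. All groups overlapped, and the differences were 0.03 (-0.25 to 0.31) for the ketogenic diet and 0.07 (-0.22 to 0.35) for MCT, or -0.07 and -0.09 over the 21 libraries. Cpt1c kept between 1075 and 1272 normalised counts in all libraries. All 4 tested genes of the shuttle list, with Cpt1c counted, had a positive MCT difference (median 0.07), and 3 of 4 a positive ketogenic difference (median 0.02). Cpt2 is counted among them on each diet with the 24 libraries, and was negative on each over the 21.

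Pdk4 is the PPAR target of the list that responds most readily to fasting and fat in other tissues. In WT it was at 299.7, 233, 307 and 198 normalised counts on control, at 214, 295, 422 and 271 on the ketogenic diet and at 203, 476, 287 and 446 on MCT. The 3xTg libraries held 496, 549.6 and 213 on control, 267, 513, 724, 399 and 420.0 on the ketogenic diet and 523, 498, 533 and 401 on MCT. Diet groups overlapped in each genotype, and the library labelled WT_M_2 (476) was the highest of WT while those labelled 3xTg_C_3 (213) and 3xTg_K_1 (267) were the lowest of 3xTg. The difference was 0.19 (95% interval -0.24 to 0.62) for the ketogenic diet and 0.36 (-0.09 to 0.80) for MCT (limma, adjusted p = 0.973 and 1.0). Without the 3 libraries the differences were 0.06 and 0.06. Ketogenic minus MCT was -0.17 (-0.58 to 0.25), and 0.01 without them. Without 3xTg_C_3 alone they were -0.03 for the ketogenic diet and 0.14 for MCT. The intervals were wide, as the spread between mice was.

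Ucp2, an uncoupling protein that PPARs also regulate, was at 234, 182, 193 and 195 in WT_C, at 189, 163, 193 and 212 in WT_K and at 187, 206, 211 and 165 in WT_M. Among 3xTg mice the values were 214, 227 and 215 on control, 173, 238, 174, 136 and 174 on the ketogenic diet and 267, 210.5, 248 and 178 on MCT. In 3xTg, 4 of 5 ketogenic libraries lay below all 3 control libraries and the shallow one above them, and the WT groups overlapped. The ketogenic-minus-control difference was -0.20 ± 0.10 (limma, adjusted p = 0.946). The regulators themselves did not pass either. Averaged over genotypes, Ppara had -0.26, Ppard 0.04 and the coactivator gene Ppargc1a -0.03 on the ketogenic diet. The 3 averages lay between -0.02 and 0.02 on MCT. For Ppara that average joined -0.30 in WT and 0.26 in 3xTg, a contrast of 0.56 that was not called. Its 3xTg control libraries were at 58.4, 55.4 and 33.4, the last of them labelled 3xTg_C_3. Over the 21 libraries the MCT differences were -0.19 for Ppara, 0.07 for Ppard and 0.01 for Ppargc1a, and that of Ppara on the ketogenic diet was -0.31.

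Decr1, the dienoyl-CoA reductase that prepares polyunsaturated chains, had the smallest p in the comparison of the test diets. It was at 236, 235, 249 and 294 in WT_C, at 266, 314, 334 and 282 in WT_K and at 238, 245, 228 and 275 in WT_M. For 3xTg the values were 277, 258 and 272 on control, 304, 292, 212, 259 and 225 on the ketogenic diet and 242, 242, 209 and 210.2 on MCT. In WT, 3 of 4 ketogenic libraries lay above all MCT libraries, and in 3xTg all 4 MCT libraries lay below the 3 control libraries while the ketogenic group spanned both. Ketogenic minus MCT was 0.23 ± 0.07 (limma, unadjusted p = 0.00455 and adjusted p = 0.981), and the parts against control were 0.08 and -0.14. The isomerase genes Eci1 and Eci2 of the same group had 0.12 and 0.07 on the ketogenic diet and 0.11 and 0.09 on MCT.

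Acaa1a, the peroxisomal thiolase, was at 473, 451, 472 and 441 in WT_C, at 501, 438, 488 and 545 in WT_K and at 449, 502, 508 and 498 in WT_M. In 3xTg it was at 396, 449.7 and 419 on control, at 328, 529, 481, 493 and 491 on the ketogenic diet and at 475, 449, 483 and 482 on MCT. Apart from the library labelled 3xTg_K_1 (328), the ketogenic 3xTg libraries lay above the control ones. The differences were 0.11 for the ketogenic diet and 0.13 for MCT (limma, adjusted p = 0.946 and 1.0), and 0.17 and 0.12 without the 3 libraries. Of its 50-base stretches, 12.9% also occur in other genes, most in its near copy Acaa1b. Acsl3, the most abundant synthetase, was at 4152, 3865, 4002 and 3841 in WT_C, at 3848, 4216, 4861 and 4746 in WT_K and at 3946, 4713, 4204 and 4509 in WT_M. The 3xTg libraries held 4542, 4666 and 4263 on control, 4295, 5072, 4543, 4789 and 4482 on the ketogenic diet and 4363, 4441, 4525 and 4000.2 on MCT. In WT, 3 of 4 ketogenic libraries lay above all control libraries. Its ketogenic difference was 0.10 ± 0.05 (limma, adjusted p = 0.946).

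Fabp3, the heart-type binding protein, was singled out after its values were seen, because it had the smallest p among members for a ketogenic effect that differs between genotypes. It was at 187, 233, 206 and 190.0 in WT_C, at 211, 266, 257 and 269.8 in WT_K and at 217, 201, 228 and 212 in WT_M. Among 3xTg mice the values were 288, 233 and 254 on control, 267, 238, 227, 213 and 178 on the ketogenic diet and 244, 239, 238 and 215 on MCT. In WT, 3 of 4 ketogenic libraries lay above all control libraries, and in 3xTg, 3 of 5 lay below all control libraries. The difference was 0.30 ± 0.11 in WT and -0.21 ± 0.11 in 3xTg, and the contrast between them was -0.51 ± 0.15 (limma, unadjusted p = 0.00269 and adjusted p = 0.724). Of its 50-base stretches, 29.2% also occur in the pseudogene Fabp3-ps1.

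**Figure D4:**
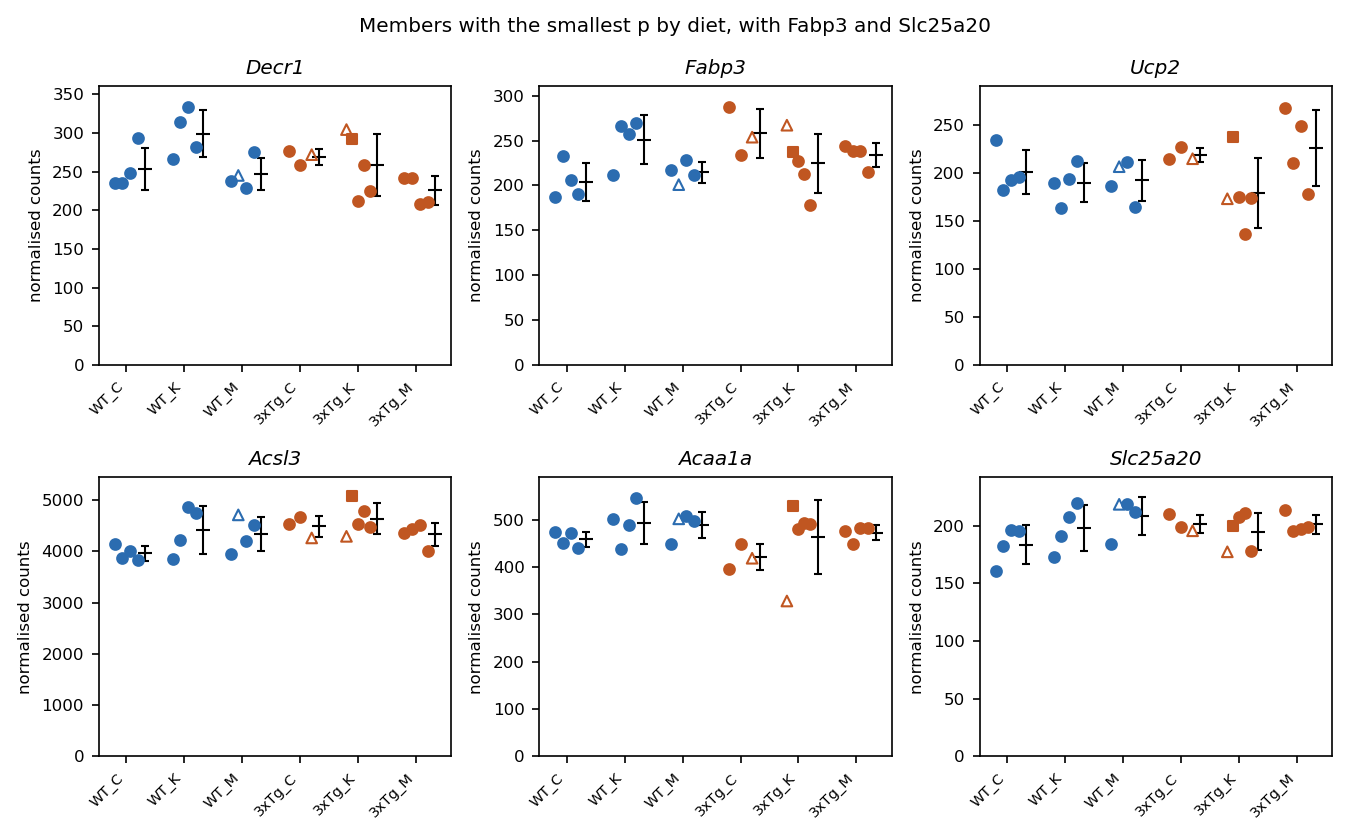
Normalised counts of Decr1, Fabp3, Ucp2, Acsl3, Acaa1a and Slc25a20 in each library by group (WT blue, 3xTg orange), with mean and SD in black. Open triangles are libraries whose Thy1 goes against the label and the square is the shallow library, and none of the 6 genes passed the adjusted test by diet.

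The remaining members are given by their ranges over all libraries. In normalised counts the transporter Slc27a1 lay between 810.3 and 1056 and Slc27a4 between 754 and 971. The synthetases Acsl1 (742 to 911), Acsl4 (2357 to 2679) and Acsl5 (931 to 1300.1) varied by similarly small factors. The electron transfer genes Etfa and Etfdh lay at 363 to 567 and 454 to 566. The peroxisomal enzymes Hsd17b4 and Ehhadh lay at 809 to 942 and 32.2 to 71.8. Wide ranges were those of the low genes Cd36 (19.4 to 84.7), Etfb (5.40 to 44.5) and Ppara (27.0 to 69.0). Acot2, a thioesterase that frees the fatty acid again, lay at 86.4 to 170.0, and 27.7% of its 50-base stretches occur in other genes, mostly Acot1.

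Between genotypes, 3 members were called. Averaged over diets, limma called 3 of 39 members between 3xTg and WT, where 8.10% of all genes were called. Of these, 2 were higher in 3xTg (all genes 3.71%) and 1 lower (all genes 4.38%). The tools edgeR and DESeq2 called the same 3 (8.57% and 10% of all genes), as did limma over the 21 libraries (13.2%). At an unadjusted p under 0.05 there were 9 of 39 (all genes 24.4%). The share of members called was close to that background. The median difference of the members was 0.01, against -0.00 for all genes, and 23 of 39 were positive. The called genes were Fabp5, Pdk4 and Acsl6, which carry a binding protein, the fuel switch and a synthetase of long polyunsaturated chains. None of the 8 tested genes listed under shuttle and long-chain oxidation (Cpt1c among them) and none of the 6 medium- and short-chain genes was called.

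Fabp5, the epidermal fatty acid binding protein (chromosome 3, 10012548 to 10016607 on GRCm38), was higher in 3xTg. It was at 489, 522, 418 and 384 in WT_C, at 384, 543, 411 and 487 in WT_K and at 564, 646, 436 and 372 in WT_M. For 3xTg the values were 793, 649.5 and 483 on control, 482, 621, 589.7, 645 and 557 on the ketogenic diet and 696, 683, 614 and 635 on MCT. All 12 of the 3xTg libraries lay above the WT mean and 4 above every WT library, and the 646 belongs to the library labelled WT_M_2, while the 483 and 482 belong to those labelled 3xTg_C_3 and 3xTg_K_1. Means were 621 ± 87.5 in 3xTg and 471 ± 85.4 in WT (SD, n = 12 each), and the log2 difference was 0.41 ± 0.09 (SE; limma, adjusted p = 0.00528; edgeR 0.00562, DESeq2 0.000377). Over the 21 libraries it was 0.54 ± 0.08 (adjusted p = 3.19e-05), with 9 of 10 3xTg libraries above every WT library. By diet the difference was 0.48 on control, 0.35 on the ketogenic diet and 0.41 on MCT. A share of 5.48% of its 50-base stretches occurs in other genes.

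Pdk4 (chromosome 6, 5483351 to 5496309) was also higher in 3xTg. From the values above, 10 of 12 3xTg libraries lay above the WT mean and 7 above every WT library. Means were 461 ± 134.8 in 3xTg and 304 ± 95.3 in WT, and the difference was 0.58 ± 0.17 (limma, adjusted p = 0.0357; edgeR 0.0284, DESeq2 0.0251). Over the 21 libraries it was 0.84 ± 0.14 (adjusted p = 0.000217). The call with 24 libraries was lost when any of 14 of the 24 libraries was left out in turn, with adjusted p up to 0.103, and with no filter on low values (adjusted p = 0.0541). Those 14 were WT_C_2, WT_C_4, WT_K_1, WT_K_2, WT_K_4, WT_M_1, WT_M_3, 3xTg_C_1, 3xTg_C_2, 3xTg_K_2, 3xTg_K_3, 3xTg_M_1, 3xTg_M_2 and 3xTg_M_3. The difference stayed between 0.49 and 0.72 when single libraries were left out. By diet it was 0.60 on control, 0.59 on the ketogenic diet and 0.54 on MCT, and the differences of the diet effect between genotypes were -0.01 for the ketogenic diet and -0.06 for MCT, or -0.44 and -0.49 without 3xTg_C_3. None of these was called.

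Acsl6 (chromosome 11, 54303798 to 54364756), the synthetase that loads docosahexaenoic acid in neurons, was lower in 3xTg. It was at 3965, 3721, 3671 and 3823 in WT_C, at 4057, 3731, 3605 and 3757 in WT_K and at 3744, 3493, 3947 and 3723 in WT_M. In 3xTg it was at 3239.9, 3395 and 3781 on control, at 3599, 3398, 3522, 3459 and 3664 on the ketogenic diet and at 3502, 3483, 3531 and 3283 on MCT. Of the 3xTg libraries, 11 of 12 lay below the WT mean and 6 below every WT library, and the 3493 belongs to the library labelled WT_M_2. Means were 3488 ± 152 in 3xTg and 3769.9 ± 158 in WT, a difference of -0.11 ± 0.03 (limma, adjusted p = 0.0154; edgeR 0.0177, DESeq2 0.00385), or 0.925-fold. Over the 21 libraries it was -0.15 ± 0.03 (adjusted p = 0.000973), and without 3xTg_C_1 the call was lost (-0.10, adjusted p = 0.0558).

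**Figure D5:**
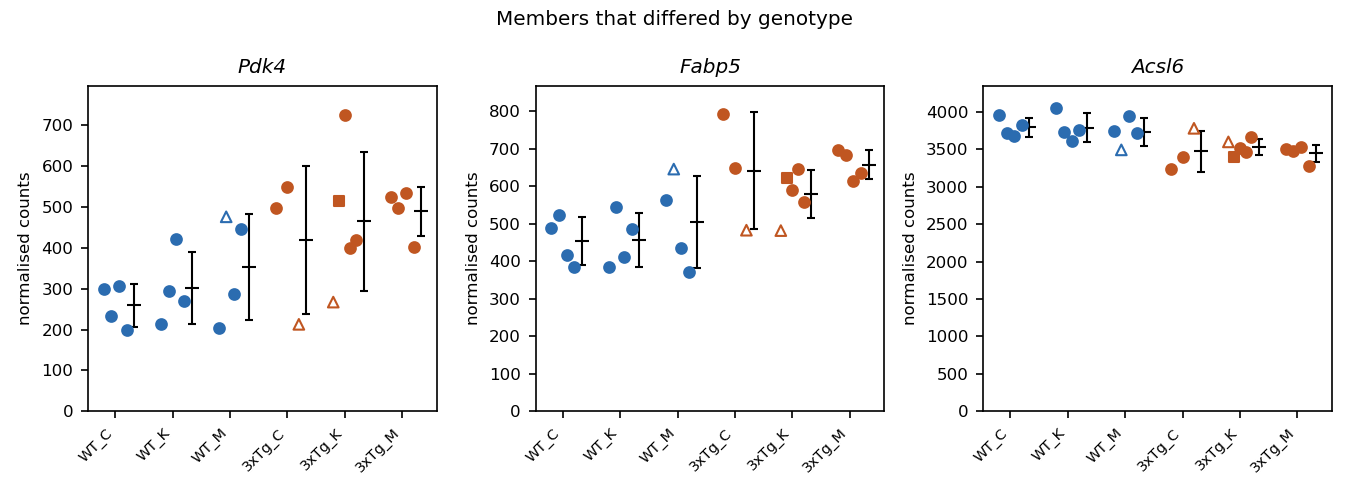
Normalised counts of Pdk4, Fabp5 and Acsl6 in each library by group (WT blue, 3xTg orange), with mean and SD in black. Open triangles mark the 3 libraries whose Thy1 goes against the label and the square the shallow library, and for Pdk4 the triangles lie within the range of the other genotype.

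On the control diet alone, with 3 against 4 mice, 0 of 39 members were called (0.0565% of all genes), also with edgeR (0.0494%) and DESeq2 (1.64%), and 6 of 39 had an unadjusted p under 0.05 (all genes 14.5%). Fabp5 (0.67, adjusted p = 0.0152) and Pdk4 (1.03, adjusted p = 0.0474) were called there by limma with the 21 libraries (1.74% of all genes), where 3xTg_C holds 2 mice and is assumed to vary like the other groups. Next to the threshold in the average over diets were Ppard (-0.15, adjusted p = 0.127), Acadl (0.10, 0.138), Slc27a1 (-0.10, 0.143), Etfa (0.10, 0.184), Acsl3 (0.08, 0.189) and Cd36 (0.39, 0.19), none of which passed with limma.

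Some markers of several cell types were called by genotype, where 3.71% of all genes were called higher in 3xTg and 4.38% lower. Of 8 markers of hippocampal neurons 4 were called lower in 3xTg, while 3 had a positive difference. The sum of the 8 lay between 12160 and 14622 in 3xTg and between 13634 and 16077 in WT. Of 6 astrocyte markers 2 were called higher (sums of 32818 to 36418 against 30488 to 37011), of 6 oligodendrocyte markers 2 (61920.0 to 82784 against 50080 to 82431) and of 5 microglia markers 1 (4578 to 5197 against 3948 to 5085). The difference was positive for 4 of the 6 astrocyte markers, and for all 6 oligodendrocyte and all 5 microglia markers. Of 6 markers of endothelial cells and pericytes 2 were called lower (3737 to 4616 against 4155 to 4929), and 1 had a positive difference. None of these markers was at 0. Their part in the differences of Fabp5, Pdk4 and Acsl6 was not tested. Of the choroid plexus markers 0 of 4 tested were called, and 0 of 5 each for ependymal cells, meningeal fibroblasts and red cells, while 1 of 6 striatal markers was called lower.

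Genes around the route were taken from 2 lists. The first held 47 genes of medium-chain entry and other fatty acid handling, of which 37 were tested. Enzymes that activate medium chains inside mitochondria, the Acsm family, were nearly silent: Acsm1 was listed at 0 in all 24 libraries, and the highest single value among Acsm2, Acsm3, Acsm4 and Acsm5 was 7.73 normalised counts, for Acsm5. By diet limma called 0 of 37 in each comparison, where it called 0% to 0.00706% of all genes. The smallest p belonged to Acsf2, a synthetase of medium chains, for the ketogenic diet (0.20 ± 0.11, limma, adjusted p = 0.946), followed by Crot (0.10 ± 0.08), and to Mfsd2a, the carrier of docosahexaenoic acid into the brain, for MCT (0.39 ± 0.15, adjusted p = 1.0), followed by the transporter Slc27a3 (0.34 ± 0.14). By genotype 6 of 37 were called (8.10% of all genes), 4 higher (3.71%) and 2 lower (4.38%). Crot, which moves medium chains from peroxisomes onto carnitine, was at 826 ± 65.7 in 3xTg and 674 ± 99.4 in WT (SD, n = 12 each), a difference of 0.30 ± 0.06 (limma, adjusted p = 0.00424). The peroxisomal carrier Abcd3 was also higher (0.11 ± 0.03, adjusted p = 0.0156). The lipase Mgll (-0.14 ± 0.04, 0.0171) and the acyl-CoA binding protein Dbi (-0.25 ± 0.07, 0.0244) were lower.

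The second list held 28 PPAR targets and partners, of which 23 were tested. By diet limma called 0 of 23 in each comparison, where it called 0% to 0.00706% of all genes. Nr1d1, a clock gene, had the smallest p on each diet, at -0.28 ± 0.10 for ketogenic and -0.29 ± 0.10 for MCT (adjusted p = 0.946 and 1.0). The other pyruvate dehydrogenase kinases Pdk1, Pdk2 and Pdk3 were added after their values were seen, and had genotype differences of 0.01, 0.00 and -0.03, none of them called.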

How the data were processed

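The authors deposited 1 table of signal values, normalised read counts of 21793 genes in 24 libraries. Per the labels' protocols, poly(A) libraries started from 500 ng of RNA, an RNA integrity number over 8 and 11 cycles of PCR. Per the submitters' processing notes, Trimmomatic 0.35, STAR 2.5.1b and GRCm38 were used. The gene counter, annotation, strand setting, use of molecular identifiers and scaling tool stand as not given in the sources used here. Every deposited value was a whole number of reads times 1 factor per library (100% whole within 0.01 reads), so whole reads were recovered for edgeR 4.0.16 and DESeq2 1.42.0 in R 4.3.3. The main test was limma 3.58.1 with a mean-variance trend on log2(value + 1), 14162 genes with 10 or more in at least 3 libraries, 6 group means that share 1 spread, two-sided, Benjamini-Hochberg adjusted at 0.05. Each group is a set of separate mice. It was tested on simulated data. The members and lists were chosen with earlier results of these data known. Values in every library are given for Pdk4, the dehydrogenases, trifunctional and shuttle genes (Cpt1a, Cpt2, Slc25a20, Hadha, Acadm, Acadl, Acadvl), any called member, and the 3 members with the smallest p in each diet comparison averaged over genotypes. From each related list up to 4 called genes per comparison, or the 2 with the smallest p, were named. A result of the second list is not reported here. Exon lengths and positions are from GENCODE M21 on GRCm38, matched by symbol for all 40 members. No library pair of a group agreed within sampling noise (chi-square per degree of freedom at least 2.09). Counting error apart, precision is set by the number of mice. Alternatives were pseudocounts of 0.5 and 5, no filter, a mean of 50, TMM, edgeR, DESeq2, a replicate block, 21 libraries and leaving out each library.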

Additional observations from a re-analysis of the deposited data

Results flagged for a closer look

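The genes described by library, except Fabp3, gave 80 sets of values, each in a group of 4 or 5 mice. Of these, 3 held a library apart from the rest by Dixon's ratio, and chance alone marks about 1 in 20 groups. Hadha was at 1106 normalised counts in 3xTg_M_1, where the other 3xTg_M libraries lay between 1154 and 1162 (gap over range 0.86). Hadhb was at 303 (302.5) in WT_C_1, where the others lay between 286 and 287 (0.93), and the same library held the highest sum of choroid plexus markers, 13146. Acaa1a was at 328 in the library labelled 3xTg_K_1, where the others lay between 481 and 529 (0.757), and Thy1 goes against the label of that library. The part of these library properties in the values was not tested.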

How the results depend on the processing

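The count of members called stayed at 0 in the 9 diet comparisons under every alternative run. For genotype averaged over diets it was 3 under pseudocounts of 0.5 and 5, no filter, a mean of 50, TMM, edgeR and DESeq2. With no filter the 3 held Cpt1b (-0.72, limma, adjusted p = 0.026, on 16 reads in all) in place of Pdk4. Of the 50-base stretches of Cpt1b, 78.6% also occur in Gm44502. When each library was left out in turn it lay between 1 (without 3xTg_C_1, Fabp5 alone) and 4 (without 3xTg_K_5, which added Etfa at adjusted p = 0.0405 with limma). On the control diet it was 0, and 2 without the 3 libraries whose Thy1 goes against the label. No difference of a gene described by library changed sign once called. Fabp5 kept its call in each of these alternatives (0.36 to 0.54, adjusted p at most 0.0229 with limma). No scaling moved the median of all genes by over 0.1. A mean filter of 50 gives no value for Acads. Replicate numbers did not pair the mice: over 55 pairs with the same number the correlation of deviations lay between -0.256 and 0.248, with 11 above 0.1, and 6 of 24 libraries correlated best with their own number. With the replicate block 3 members were called by genotype averaged over diets and 0 in each other comparison. The depth of 2.65 M reads in 3xTg_K_2 limits the rarest genes, such as Etfb with 1 read there.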

Other observations

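The subunits of the trifunctional protein, Hadha and Hadhb, are transcribed away from each other from neighbouring starts. The log2 level of Hadha minus that of Hadhb was 1.99 ± 0.09 in WT_C (SD, n = 4), 1.98 ± 0.07 in WT_K (n = 4) and 2.03 ± 0.06 in WT_M (n = 4). It was 2.24 ± 0.07 in 3xTg_C (n = 3), 1.91 ± 0.15 in 3xTg_K (n = 5) and 2.02 ± 0.06 in 3xTg_M (n = 4). The 3xTg control group lay between 2.16 and 2.28, above the highest library of every other group (2.12). It includes the library labelled 3xTg_C_3 (2.28), whose Thy1 goes against the label, beside 3xTg_C_1 (2.28) and 3xTg_C_2 (2.16). As given above, 19.7% of the 50-base stretches of Hadhb also occur in other gene models. The quantity was chosen after its values were seen and was not tested.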
